A study of Mus musculus with 16 samples.

Results

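The MHC class II genes described here are H2-Aa, H2-Ab1, H2-Eb1, Cd74 and Ciita, 5 of the 32285 features in the deposited count tables. They were chosen by symbol, and their counts of unique molecular identifiers (UMIs, 1 per captured transcript) were read in single nuclei of the mouse hippocampus with at least 500 UMIs, at least 300 genes and at most 5% mitochondrial UMIs. Single-nucleus RNA sequencing was done on 16 female mice aged 9 months. The mice were Ch25h+/+ or Ch25h-/-, and of either genotype some were labelled Tau+ and others Tau-, which makes 4 groups of 4 libraries. Ch25h encodes cholesterol 25-hydroxylase, and the series addresses a path from the innate immune sensor STING and interferon through this enzyme to tau pathology. The labels do not name the tau line, its promoter or the strain, and they give no batch. They title the libraries separately without saying how the animals relate, so the p-values measure the spread between these samples.

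MHC class II molecules display peptides taken up from outside the cell to CD4+ T cells. H2-Aa encodes the alpha chain and H2-Ab1 the beta chain of the I-A molecule, and H2-Eb1 encodes the beta chain of I-E. Cd74, the invariant chain, holds the peptide groove during assembly, and Ciita is the transactivator recruited to class II promoters by the RFX, CREB and NF-Y factors that bind them. In healthy brain, border macrophages and dendritic cells carry class II, whereas resting microglia carry little of it and interferon gamma is known to induce it.

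The 3 chain genes lie within the H2 complex on chromosome 17 (coordinates from GENCODE M21, GRCm38): H2-Ab1 (ENSMUSG00000073421) at chr17:34257689-34269419 on the plus strand, H2-Aa (ENSMUSG00000036594) at chr17:34282744-34287823 on the minus strand and H2-Eb1 (ENSMUSG00000060586) at chr17:34305867-34316674 on the plus strand. Cd74 is on another chromosome. Ciita (ENSMUSG00000022504) is at chr16:10480059-10528418 on the plus strand, and 25888 bases of it, 53.5%, lie inside Dexi on the minus strand. Gm20513, an antisense gene, overlaps the start of H2-Eb1. Whether the counting used strand is not given in the sources used here, so reads in these overlaps cannot be assigned with certainty.

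RefSeq promoter windows (GRCm38.p6, 250 bases before to 50 after the gene start) were matched for 2 of the 5 genes. They are shown because Ciita is known to act at the X and Y boxes of such promoters. Whether it does so in these nuclei was not tested. Capitals mark GCAAC, the core of the X box, and ATTGG, the Y box that NF-Y binds. H2-Aa is at chr17:34287774-34288073, minus strand, and H2-Eb1 at chr17:34305617-34305916, plus strand.
H2-Aa: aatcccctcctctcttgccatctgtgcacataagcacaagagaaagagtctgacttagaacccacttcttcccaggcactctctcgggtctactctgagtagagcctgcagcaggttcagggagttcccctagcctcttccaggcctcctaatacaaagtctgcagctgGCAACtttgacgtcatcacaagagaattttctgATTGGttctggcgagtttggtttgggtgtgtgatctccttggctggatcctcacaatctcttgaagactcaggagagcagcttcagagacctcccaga
H2-Eb1: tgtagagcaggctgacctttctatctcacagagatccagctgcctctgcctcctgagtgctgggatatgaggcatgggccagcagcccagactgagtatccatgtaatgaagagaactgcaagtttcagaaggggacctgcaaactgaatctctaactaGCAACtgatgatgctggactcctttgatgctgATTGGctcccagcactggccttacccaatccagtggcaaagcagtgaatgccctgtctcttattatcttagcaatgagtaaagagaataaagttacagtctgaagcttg
In H2-Aa the X-box core began 81 bases and the Y box 48 bases before the gene start, with 28 bases between them. In H2-Eb1 they began 91 and 59 bases before it, with 27 between. On either strand, GCAAC alone was in 35.2% and ATTGG alone in 37.4% of the 32851 windows. GCAAC followed by ATTGG on 1 strand, with 20 to 35 bases between, a spacing chosen with both windows in view, was in 0.794% (261 windows). Among the 27 genes of the members and pathway lists below that had a window, 5 held the pair: H2-Aa, H2-Eb1, H2-Eb2, H2-Oa and H2-Ob. These matches are descriptions of letters and were not tested as binding sites.

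After removal of 11045 doublets among 147873 nuclei, 136828 nuclei remained, 7601 to 10567 per library, with library medians of 3642.5 to 6253 UMIs. Any pair of libraries shared 10 to 40 nuclear barcodes. In the Tau+ libraries, over all nuclei, Prnp was 106 to 152 CPM (a gene's UMIs scaled to the same total in every library) against 62.2 to 103 CPM in Tau- libraries, and Gm43049, named after its values were seen, was 67.4 to 87.0 CPM against 0.0200 to 0.207 CPM. Ch25h gave 16 to 36 UMIs per library in Ch25h+/+ Tau+, 8 to 12 in Ch25h+/+ Tau-, 12 to 30 in libraries labelled Ch25h-/- Tau+ and 10 to 25 in those labelled Ch25h-/- Tau-. Ch25h itself was therefore not clearly lower under the Ch25h-/- label (mean 0.451 against 0.474 CPM in Tau+, and 0.348 against 0.195 CPM in Tau-). A 3' count outside a deleted stretch would check nothing, and the labels do not describe the allele. Gm26902, an antisense gene that overlaps Ch25h and was named after its values were seen, was 0.606 to 1.02 CPM in the Ch25h+/+ libraries and 0.188 to 0.417 CPM in those labelled Ch25h-/-, with no overlap.

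Macrophage-like nuclei had the highest class II level in CPM. Microglia-like nuclei held a comparable part of the UMIs pooled over libraries, nearly all of it from Tau+ libraries. Their Cd74 UMIs were 1253 in Tau+ and 12 in Tau-, against 458 and 440 in macrophage-like nuclei. Nuclei were clustered without the 5 genes and named from fixed markers; they are called macrophages and microglia from here on. Pooled over libraries, Cd74 stood at 1667 CPM in the 342 macrophages, 140 CPM in the 5790 microglia and 130 CPM in 103 lymphocyte nuclei that carried T-cell and B-cell markers together. It was 18.9 CPM in endothelial cells and 14.2 CPM in fibroblasts, beside a median of 12.5 CPM in free RNA (below). The endothelial cluster was 47.2% doublets before their removal, and the fibroblast clusters were at 6.31 and 43.2 CPM. Cd74 was 0.489 to 0.507 CPM in 4 neuronal classes (CA pyramidal, DG granule, other excitatory and inhibitory neurons). The small class of 491 Cajal-Retzius neurons had Cd74 at 2.03 CPM, from 2 UMIs. These pooled levels have no replicate error, and neighbouring classes such as microglia and the 103 lymphocytes, with 14 Cd74 UMIs in all, cannot be ordered.

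**Figure D1:**
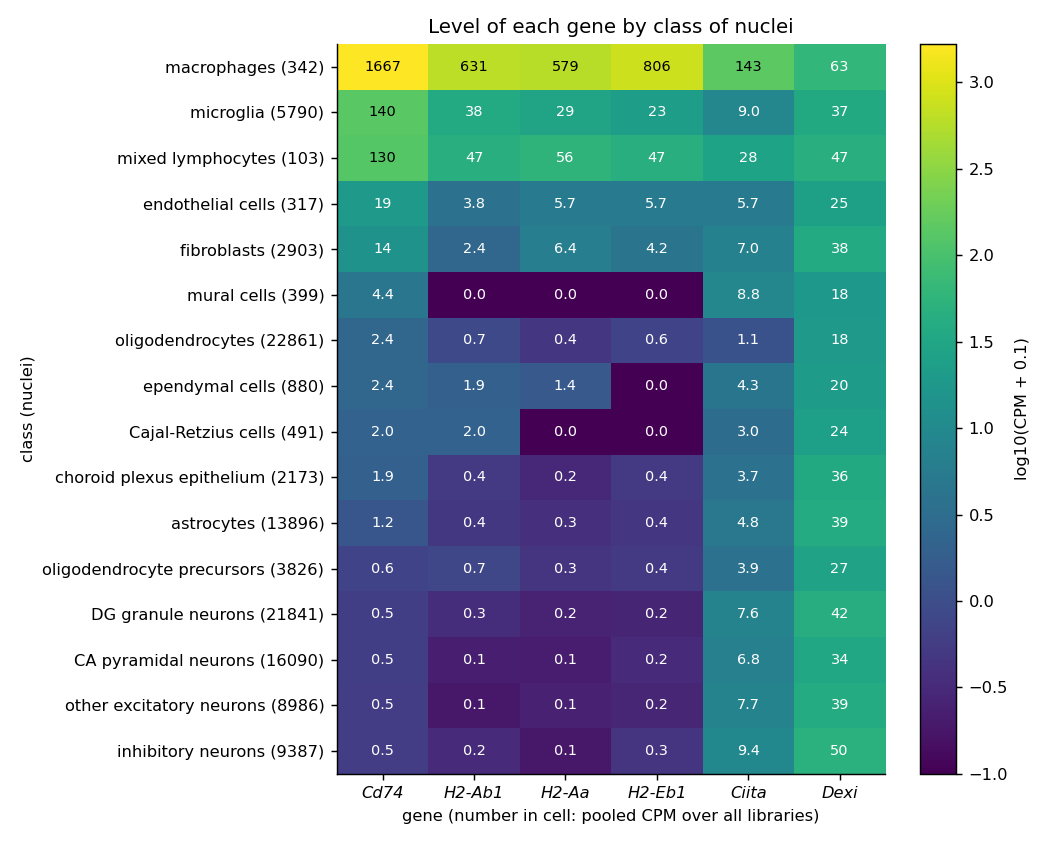
Pooled level of each gene (columns; CPM, colour on a log10 scale) in 16 named classes of nuclei (rows), with Dexi for comparison. The 4 antigen-presentation genes are highest in macrophages (Cd74 at 1667 CPM) and near 0 in the CA pyramidal, DG granule, other excitatory and inhibitory neurons, where Ciita is at 6.77 to 9.40 CPM.

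Of all Cd74 UMIs in nuclei, 45.3% were in microglia and 32.1% in macrophages. Microglia and macrophages each held 38.9% of the H2-Ab1 UMIs. The shares were 35.6% and 41.9% for H2-Aa, and 24% and 49.4% for H2-Eb1. Ciita was distributed otherwise: 1.40% of its UMIs were in microglia and 1.33% in macrophages, against 19.8% in CA pyramidal neurons, 18.1% in granule neurons of the dentate gyrus (DG) and 13% in inhibitory neurons. These shares follow in part how many UMIs each class holds. A further part of each gene's UMIs lay in 26543 nuclei of clusters left unnamed, whose shares are not listed. By level, Ciita was at 156 and 127 CPM in Tau+ and Tau- macrophages and at 12.8 and 1.33 CPM in Tau+ and Tau- microglia. It was at 7.34 to 7.86 CPM per group in the 4 neuronal classes pooled. Over the 16 named classes, the genes whose log2(CPM + 1) was most like that of Cd74 were H2-Aa (Pearson r 0.978), H2-Eb1 (0.969), H2-Ab1 (0.967), Snx2 (0.961) and Tent2 (0.961). All points of these correlations come from the same 16 libraries, and classes differ in depth.

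Much of the class II RNA was outside called nuclei. Of the UMIs over all barcodes, 51.8% for H2-Aa, 49.4% for H2-Ab1, 58.9% for H2-Eb1 and 55.1% for Cd74 were in the 147873 nuclei before doublet removal, against 94.3% for Ciita. In barcodes under 100 UMIs, which hold free RNA, Cd74 was at a median of 12.5 CPM (1.28 to 77.3 CPM over libraries). It was 4.02 to 77.3 CPM in the Tau+ and 1.28 to 29.1 CPM in the Tau- libraries.

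In microglia the mean level of each member was higher in the Tau+ than in the Tau- group of the same Ch25h genotype, unevenly between libraries. In the main edgeR fit only Cd74 and H2-Ab1 were called, and only over both genotypes (below). The design asks what tau and loss of Ch25h do, so each tau effect is Tau+ minus Tau- within 1 Ch25h genotype or averaged over both. Levels come from counts summed per library, in which fewer cells with class II RNA and less of it per cell cannot be told apart. Microglia numbered 165 to 604 per library and gave 241267 to 990474 UMIs. Their median UMIs per nucleus were 1482.5 to 1749 in Ch25h+/+ Tau+, 1066 to 1253 in Ch25h+/+ Tau-, 1334 to 1983 in libraries labelled Ch25h-/- Tau+ and 1180 to 1561 in those labelled Ch25h-/- Tau-, so depth moved with tau.

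H2-Aa, the I-A alpha chain, was at 65.7, 8.58, 0 and 76.8 CPM in replicates 1 to 4 of Ch25h+/+ Tau+ and at 2.27, 0, 0 and 0 CPM in Ch25h+/+ Tau-. Under the Ch25h-/- label it was at 96.5, 7.07, 1.66 and 70.2 CPM with Tau+ and at 0 in all 4 libraries with Tau-. Replicates 1 and 4 of both Tau+ groups were high and replicate 3 was at or near 0, so the groups overlapped under Ch25h+/+ and did not under the Ch25h-/- label. The lack of overlap rests on 1 UMI in replicate 3 labelled Ch25h-/- Tau+. The mean was 37.8 ± 39.1 CPM (SD, n = 4) against 0.568 ± 1.14 CPM under Ch25h+/+, and 43.8 ± 46.9 CPM against 0 under Ch25h-/-. Pooled over libraries, the level labelled Ch25h-/- Tau+ was 23.3 times the floor of 3 counts over the Tau- group. With counting error alone, the lower limit of the Tau+ to Tau- ratio was 18.7.

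H2-Ab1, its beta-chain partner, was at 106, 18.4, 2.83 and 112 CPM in Ch25h+/+ Tau+ and at 6.82, 0, 0 and 4.14 CPM in Ch25h+/+ Tau-. Under the Ch25h-/- label it was at 81.4, 10.1, 3.31 and 73.4 CPM with Tau+ and at 0, 0, 0 and 2.41 CPM with Tau-. Replicates 1 and 4 were again the high ones, and replicate 3 of Ch25h+/+ Tau+ lay inside the Tau- range. The pooled counts were 24.5 times as high in Ch25h+/+ Tau+ as in Ch25h+/+ Tau- (95% counting interval 9.43 to 90.7) and 66.6 times under Ch25h-/- (11.7 to 2652, on 1 UMI in Tau-). Such intervals cover counting error only.

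H2-Eb1, the I-E beta chain, was at 77.0, 1.23, 2.83 and 55.2 CPM in Ch25h+/+ Tau+ and at 0 in all 4 Ch25h+/+ Tau- libraries. Under the Ch25h-/- label it was at 47.6, 10.1, 3.31 and 52.7 CPM with Tau+ and at 2.44, 1.82, 0 and 7.24 CPM with Tau-. It did not overlap between the tau groups under Ch25h+/+ but did under Ch25h-/-. The former rests on 1 UMI in each of replicates 2 and 3 of Ch25h+/+ Tau+. In Ch25h+/+ Tau- replicate 1 a single UMI amounts to 2.27 CPM, above the 1.23 CPM of Tau+ replicate 2. Whether these groups overlap therefore cannot be told. Pooled, H2-Eb1 in Ch25h+/+ Tau+ was 18.9 times the same floor of 3 counts over the Tau- group. The lower counting limit of that Tau+ to Tau- ratio was 15.2. Under Ch25h-/- it was 8.99 times as high with tau (counting interval 3.70 to 28.4).

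Cd74, the invariant chain (ENSMUSG00000024610, chr18:60803848-60812652, plus strand), gave the most UMIs of the members in microglia. It was at 344, 85.8, 8.50 and 425 CPM in replicates 1 to 4 of Ch25h+/+ Tau+, from 335, 70, 3 and 354 UMIs. In Ch25h+/+ Tau- it was at 2.27, 5.03, 0 and 16.6 CPM, from at most 4 UMIs per library. The libraries labelled Ch25h-/- had 323, 51.5, 29.8 and 262 CPM with Tau+ and 2.44, 5.46, 3.83 and 0 CPM with Tau-. The 2 tau groups did not overlap under Ch25h-/-, while under Ch25h+/+ the third Tau+ library was below the fourth Tau- library. The means were 216 ± 200 against 5.97 ± 7.37 CPM and 167 ± 148 against 2.93 ± 2.31 CPM (SD, n = 4), and the pooled counts were 50.3 times (24.3 to 126) and 53.2 times (22.6 to 165) as high. Free Cd74 RNA of the same library was higher than the microglial level in 6 of the 8 Tau- libraries. The exceptions were replicate 4 of Ch25h+/+ Tau- (16.6 against 1.28 CPM free) and replicate 2 labelled Ch25h-/- Tau- (5.46 against 1.55 CPM free). In Tau+ it was higher in replicate 3 of Ch25h+/+ (11.8 CPM free against 8.50 CPM).

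Ciita, the transactivator, was at 29.8, 3.68, 0 and 13.2 CPM in Ch25h+/+ Tau+ and at 2.27, 0, 3.37 and 4.14 CPM in Ch25h+/+ Tau-. The libraries labelled Ch25h-/- had 17.5, 2.02, 1.66 and 27.1 CPM with Tau+ and 2.44, 0, 0 and 0 CPM with Tau-. The groups overlapped under both genotypes, and the same replicates 1 and 4 were high as for the chain genes and Cd74. Pooled, it was 6.62 times (2.12 to 33.4) and 18.4 times (3.09 to 748) as high with tau. Under Ch25h+/+, Dexi, which overlaps it, was at 35.7 ± 5.86 CPM with tau and 41.1 ± 11.3 CPM without. Under the Ch25h-/- label, Dexi was at 39.7 ± 12 CPM with tau and 28.2 ± 4.51 CPM without (SD, n = 4).

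**Figure D2:**
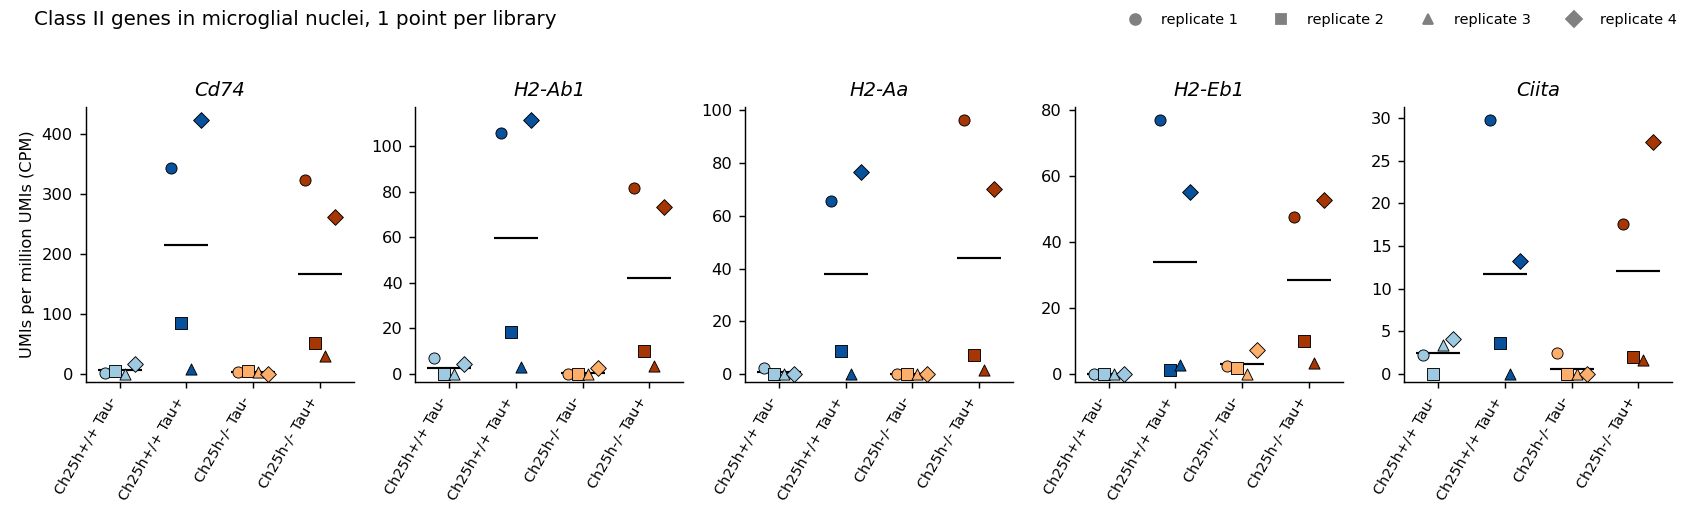
Level of each gene in microglia (CPM, linear axes that differ between panels), 1 point per library with the marker shape giving the replicate and the line the group mean. Replicates 1 and 4 of both Tau+ groups are high in every panel (Cd74 262 to 425 CPM), and all Tau- points are near 0 (Cd74 at most 16.6 CPM).

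Cd74 and H2-Ab1 rose with tau over both Ch25h genotypes. The edgeR quasi-likelihood test gave Cd74 a log2 fold change of 5.51 (SE 1.09, 95% interval 3.14 to 7.87, Benjamini-Hochberg adjusted p = 0.00731) and H2-Ab1 one of 4.99 (SE 1.25, 2.28 to 7.70, adjusted p = 0.0250). H2-Aa (6.53, SE 1.93, edgeR adjusted p = 0.0711) and H2-Eb1 (5.25, SE 1.69, edgeR adjusted p = 0.0952) were not called. So 2 members were called, where 9.12% of the 8450 genes tested were called and 5.46% were called higher. Ciita did not pass the count filter. The 4 others passed it through their Tau+ libraries, so they had to differ between tau groups and their number supports nothing.

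Within 1 genotype no member was called, beside 2.18% of genes in Ch25h+/+ (1.36% called higher) and 1.63% in Ch25h-/- (1.21% higher). Cd74 had log2 fold changes of 5.37 (SE 1.48, edgeR adjusted p = 0.0819) in Ch25h+/+ and 5.65 (SE 1.60, edgeR adjusted p = 0.106) in Ch25h-/-. Leaving out replicate 3 of Ch25h+/+ Tau+ brought Cd74 to an edgeR adjusted p of 0.0216 in Ch25h+/+ and 0.0476 in Ch25h-/-. Leaving out replicate 3 of Ch25h-/- Tau+ gave 0.0488 in Ch25h-/-. Without other single libraries the edgeR adjusted p of Cd74 rose to as much as 0.212 in Ch25h+/+ and 0.245 in Ch25h-/-. DESeq2 called 2 members in Ch25h+/+ (2.84% of genes, 1.83% higher), 3 in Ch25h-/- (2.52%, 1.94% higher) and all 4 tested over both (8.88%, 5.25% higher). Without a count filter, edgeR called Ciita in each genotype, as the only member called there. Its log2 fold change was 2.54 in Ch25h+/+ (edgeR adjusted p = 0.0382, beside 2.41% of genes) and 3.84 in Ch25h-/- (0.00472, 2.04%). Over both genotypes it was 3.19 (1.32e-05, 5.14%). These calls rest on 0 to 29 Ciita UMIs per library, and the tau groups overlapped under both genotypes.

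The call of Cd74 over both genotypes held without each of the 16 libraries in turn, with edgeR adjusted p from 0.00183 to 0.0186. That of H2-Ab1 was lost without Ch25h+/+ Tau- replicate 2 (edgeR adjusted p = 0.0538) or 3 (0.0508), and without Ch25h-/- Tau- replicate 1 (0.0532), 2 (0.0579) or 4 (0.0814). H2-Eb1 was called without Ch25h+/+ Tau+ replicate 2 (edgeR adjusted p = 0.0409), and H2-Aa without Ch25h-/- Tau+ replicate 3 (0.0444).

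Loss of Ch25h was not seen to change class II RNA in microglia, within wide intervals. In Tau+ the edgeR log2 difference, labelled Ch25h-/- minus Ch25h+/+, was -0.44 for Cd74 (SE 0.77, 95% interval -2.11 to 1.24) and -0.63 for H2-Ab1 (SE 0.79, -2.34 to 1.09). It was 0.07 for H2-Aa (SE 0.99, -2.16 to 2.29) and -0.43 for H2-Eb1 (SE 0.93, -2.52 to 1.67). No member was called, beside 0% of all genes by edgeR, where 263 genes had an unadjusted p under 0.05. DESeq2 called 1 gene (0.0118%) and edgeR without a count filter 2 (0.00932%), no member among them. The Tau+ values of both genotypes overlapped for all 5 genes, and the pooled counts of Cd74 labelled Ch25h-/- were 0.635 times those of Ch25h+/+ (0.566 to 0.712, counting error only). In Tau- and for the interaction, edgeR called 0 genes (269 and 291 at unadjusted p under 0.05; DESeq2 called 0 in each), and the members' values there rest on 0 to 7 UMIs per group, with a Cd74 interaction of 0.28 (SE 3.16).

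The share of microglia with a Cd74 UMI followed the same order. It was 24.5, 9.03, 0.862 and 26.9% in replicates 1 to 4 of Ch25h+/+ Tau+ and 0.300, 0.578, 0 and 1.01% in Ch25h+/+ Tau-. Under the Ch25h-/- label it was 23.4, 6.58, 2.22 and 13.9% with Tau+ and 0.379, 0.676, 0.606 and 0% with Tau-. Thinned to 500 UMIs per nucleus, which left out no nucleus, the group means were 7.13, 0.245, 5.24 and 0.157% in that order of groups. In the same 4 neuronal classes, a cell type that lacks class II, with median depths of 5759 to 9426 UMIs, the means were 0.624, 0.177, 0.394 and 0.254% before and 0.0576, 0.0198, 0.0264 and 0.0189% after thinning. After thinning, the Tau- means of microglia were above those of neurons, on 0 to 3 microglia with a Cd74 UMI per library. Thinning removes more of any free RNA from the deeper neurons, so thinned neurons give no background level for microglia. Before thinning, Tau- Cd74 UMIs per 1000 nuclei were 6.17 (Ch25h+/+) and 4.21 (Ch25h-/-) in microglia and 3.21 and 2.58 in neurons.

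Class II RNA in Tau+ microglia came from few nuclei. Of 3467 Tau+ microglia, 2859 had no UMI of the 3 chains or Cd74, and the 100 nuclei with most held 48.9% of the 2058 UMIs. Of the 183 nuclei with an H2-Aa UMI, 144 also had Cd74, as did 170 of the 226 with H2-Ab1 and 124 of the 150 with H2-Eb1. The 508 nuclei with Cd74 thus mostly had no UMI of a given chain. H2-Aa and H2-Ab1 were found together in 89 nuclei, H2-Aa and H2-Eb1 in 81, and H2-Ab1 and H2-Eb1 in 77. Of the 62 nuclei with a Ciita UMI, 42 had Cd74 and 32 had H2-Aa. Nuclei with more UMIs have more chances to show any pair, which was not tested. At least 3 of the 5 genes were found together in 88 of 1740 microglia of Ch25h+/+ Tau+ (5.06%) and 63 of 1727 labelled Ch25h-/- Tau+ (3.65%). None was found among 1135 of Ch25h+/+ Tau-, which allows a share of up to 0.264%, or 1188 labelled Ch25h-/- Tau- (up to 0.253%). These limits pool 4 libraries, cover counting error only and concern nuclei in which such UMIs were found, and the Tau- microglia were also shallower.

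Most of these UMIs lay in microglial sub-cluster 3, whose leading genes were Lilrb4a, Apobec1, Fgr and Olfr111. It held 798 nuclei, 789 of them from Tau+ libraries, where it was 22.8% of microglia and held 72.6% of the Cd74, 78.0% of the H2-Aa, 69.3% of the H2-Ab1, 74.3% of the H2-Eb1 and 79.2% of the Ciita UMIs. Genes that differ with tau helped to define this cluster, so its size is given as a denominator and not compared between tau groups. Among Tau+ microglia, Cd74 was at 598 CPM in sub-cluster 3 and at 19.0 to 117 CPM in sub-clusters 0, 1, 2 and 5. In sub-cluster 4, 46 Tau+ nuclei led by the interferon-induced genes Cxcl10, Ifi213 and Ccl12, it was at 420 CPM.

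Tau+ libraries differed in how many microglia fell in sub-cluster 3 and in the Cd74 level within it. In Ch25h+/+ Tau+ it held 247, 125, 3 and 143 nuclei (40.9, 28.2, 1.29 and 31.0% of microglia), with Cd74 at 645, 213, 0 and 925 CPM. In the libraries labelled Ch25h-/- Tau+ it held 115, 80, 8 and 68 nuclei (29.6, 16.5, 1.98 and 15.2%), with Cd74 at 793, 147, 74.0 and 751 CPM. Replicate 2 of Ch25h+/+ thus had nearly the share of replicate 4 but a lower Cd74 level, and both replicates 3 had few such nuclei.

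**Figure D3:**
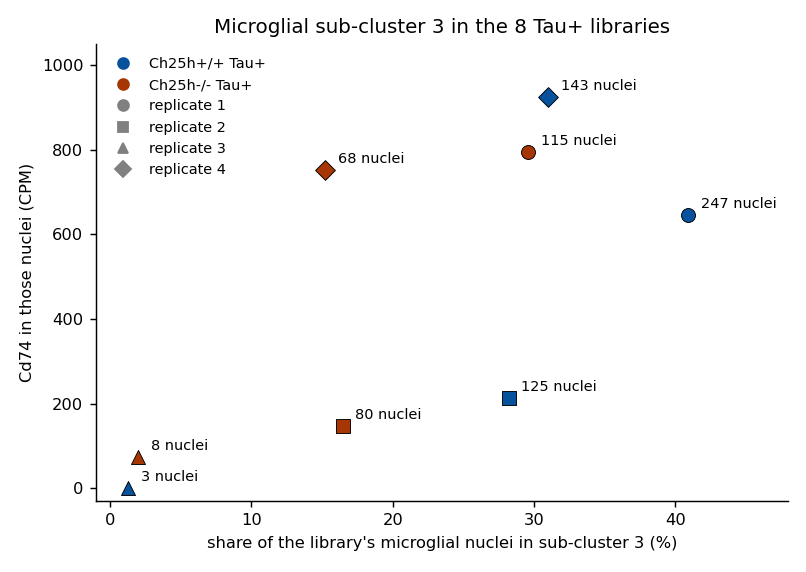
Cd74 level in microglial sub-cluster 3 (CPM, vertical) against the share of the library's microglia in that sub-cluster (percent, horizontal), 1 point per Tau+ library. Replicates 1 and 4 of both genotypes lie at 645 to 925 CPM and replicate 2 of both at 147 and 213 CPM, at shares from 15.2 to 40.9%.

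The difference with tau was also present outside sub-cluster 3. Cd74 in the other sub-clusters was at 81.1 ± 71.5 CPM with tau against 2.90 ± 2.26 CPM without it under Ch25h+/+, and at 74.0 ± 63.7 against 2.93 ± 2.31 CPM under the Ch25h-/- label (SD, n = 4). In a fit without that sub-cluster, chosen after its values were seen, Cd74 (log2 fold change 4.56, SE 0.90, edgeR adjusted p = 0.0128) and H2-Ab1 (3.99, SE 1.05, edgeR adjusted p = 0.0491) were called over both genotypes, beside 3.85% of 8328 genes. The other 3 members did not pass the filter there. Cd74 and H2-Ab1 passed it through their Tau+ libraries, so their calls are no separate support. Within 1 genotype neither was called (Cd74 edgeR adjusted p 0.177 and 0.152, beside 0.504 and 0.793% of genes). The sizes of the sub-clusters left in were not held equal between tau groups in that fit. Genes that differ with tau helped to define these sub-clusters too, so their sizes are given as denominators only. Sub-cluster 0, with 204 Tau+ Cd74 UMIs, was 27.7% of Tau+ and 4.91% of Tau- microglia. Free Cd74 had a median of 22.5 CPM over the Tau+ libraries and reached 77.3 CPM in replicate 1 of Ch25h+/+ Tau+. Pooled Tau+ nuclei of sub-cluster 1 were below that median, at 19.0 CPM. Those of sub-clusters 2 and 5, at 43.3 and 63.9 CPM, lay above the median but below the highest library. Sub-clusters 0 and 4, at 117 and 420 CPM, lay above both. Free and sub-cluster levels were not compared library by library.

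Markers of other immune cells were read in the same microglial sums. The 8 dendritic cell markers summed to 56.6 to 158 CPM in Ch25h+/+ Tau+ and 66.3 to 135 CPM under the Ch25h-/- Tau+ label, above 33.7 to 50.3 and 28.9 to 49.1 CPM in the matching Tau- groups. 6 of the 8 were detected, and Cd209a and Ccr7 were at 0. This sum is mostly Batf3 (364 UMIs) and Itgax (332 UMIs) of 822 UMIs, while Flt3, Zbtb46, Clec9a and Xcr1 had 2 to 79 UMIs each. The 8 macrophage markers, whose sum is mostly Stab1 (1632 of 1765 UMIs), summed to 139 to 249 and 152 to 222 CPM with Tau+ against 233 to 356 and 218 to 285 CPM with Tau-, all 8 being detected over the libraries together. Of them Ms4a7, with 96 UMIs, had all its UMIs in Tau+ libraries. The 7 B-cell markers summed to 126 to 402 and 168 to 361 CPM with Tau+ against 373 to 661 and 466 to 697 CPM with Tau-, with the defining Cd79a and Pax5 at 0. The 8 T-cell markers stayed at 0 to 19.8 CPM with Cd3e, Trac and Trbc2 at 0, and the 6 monocyte and neutrophil markers at 7.20 to 31.9 CPM with Ly6c2 and Chil3 at 0. Without every microglial nucleus that had a UMI of a macrophage, dendritic, B-cell or T-cell marker, Cd74 kept its call over both genotypes (log2 fold change 5.48, edgeR adjusted p = 0.0222) and H2-Ab1 lost it (5.06, edgeR adjusted p = 0.0865). That fit called 432 of 5036 genes. It left 2580 of the 5790 microglia, and the markers with most UMIs in microglia were Bank1 (2233) and Stab1 (1632).

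Across the 16 libraries the members moved together in microglia. The Pearson correlations of log2(CPM + 1) between members ran from 0.727 (H2-Eb1 and Ciita) to 0.954 (H2-Aa and H2-Ab1), n = 16, and the points share the tau split and the library depth. Most like Cd74 among 8449 genes were Axl (0.970), a receptor for dying-cell signals, Bcar3 (0.955), Cers6 (0.940), a ceramide synthase, Igf1 (0.937) and Apobec1 (0.937). Most like H2-Ab1 were Cers6 (0.956), H2-Aa (0.954), Lrmda (0.928), B2m (0.927), the light chain of class I molecules, and Apobec1 (0.925). The correlations are descriptions over libraries of 2 tau groups, which differ in mean level and overlap in part.

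Of 24 listed genes of the wider class II pathway 16 were tested in microglia, and over both genotypes 2 were higher with tau and 0 lower, where 5.46% of all genes were called higher. H2-DMb1, a chain of the peptide-exchange factor H2-DM, had a log2 fold change of 0.61 (SE 0.19, edgeR adjusted p = 0.0368) and Irf8, a myeloid transcription factor, one of 0.38 (SE 0.12, edgeR adjusted p = 0.0431). The median log2 fold change of the 16 was 0.18, beside -0.00325 over all genes. Ctss, the protease that trims the invariant chain (0.23, edgeR adjusted p = 0.170), and Ifi30, a lysosomal thiol reductase (0.56, edgeR adjusted p = 0.107), were not called. Of the 8 genes of interferon gamma input 6 were tested, with a median of 0.37, and 1 was higher over both genotypes. Ifngr2, a receptor subunit, was higher in Ch25h+/+ (0.60, SE 0.16, edgeR adjusted p = 0.0448). None of either list was called for loss of Ch25h or the interaction.

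In macrophages, the class with the highest Cd74 level in CPM, none of the 4 members tested was called for a difference with tau. Libraries held 2 to 45 such nuclei, fewer than 10 in 4 libraries, so the values are given first without a test. Cd74 was at 833, 849, 2143 and 2056 CPM in Ch25h+/+ Tau+ and at 1824, 3258, 1669 and 929 CPM in Ch25h+/+ Tau-. It was at 2956, 1886, 449 and 0 CPM in the libraries labelled Ch25h-/- Tau+, the last from 2 nuclei, and at 1153, 0, 1575 and 2910 CPM in those labelled Ch25h-/- Tau-, the zero from 4 nuclei. All 4 groups overlapped. H2-Aa ran from 0 to 1073 CPM, H2-Ab1 from 0 to 1216 CPM, H2-Eb1 from 0 to 1422 CPM and Ciita from 0 to 434 CPM over the libraries, and their groups overlapped too.

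**Figure D4:**
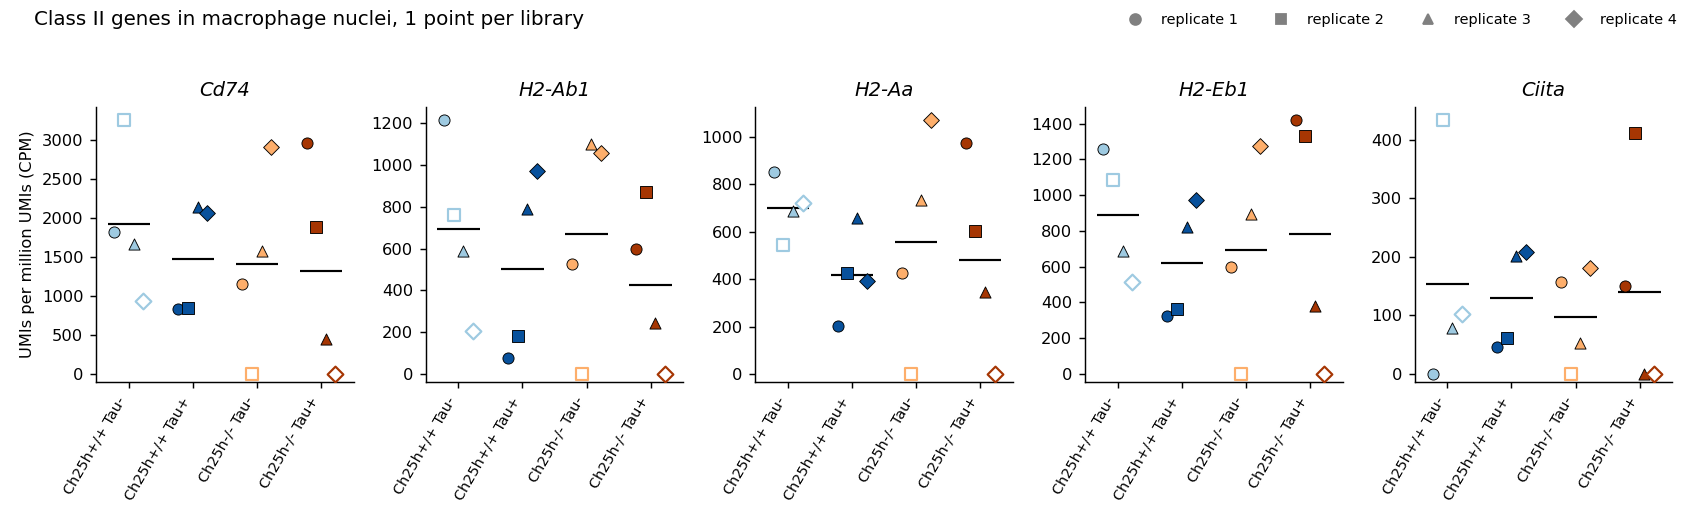
Level of each gene in macrophages (CPM, axes differ between panels), 1 point per library; open points are libraries with fewer than 10 macrophage nuclei and lines are means over all 4 libraries. The 4 groups overlap in every panel, with Cd74 from 0 to 3258 CPM.

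Pooled counts of Tau+ over Tau- macrophages gave ratios of 0.857 for Cd74 (counting interval 0.751 to 0.979), 0.679 for H2-Aa (0.540 to 0.854), 0.690 for H2-Ab1 (0.554 to 0.859), 0.879 for H2-Eb1 (0.725 to 1.07) and 1.22 for Ciita (0.759 to 1.99), in counting error only. An edgeR fit over the 12 libraries with 10 or more macrophage nuclei, added after the values were seen, tested 1492 genes. It left out replicates 2 and 4 of Ch25h+/+ Tau-, with 9 and 7 such nuclei, so that group was smaller. Replicate 4 labelled Ch25h-/- Tau+ (2 nuclei) and replicate 2 labelled Ch25h-/- Tau- (4 nuclei) were also left out. Over both genotypes Cd74 had a log2 fold change of -0.19 (SE 0.48, 95% interval -1.27 to 0.89), H2-Ab1 -0.68 (SE 0.59), H2-Aa -0.56 (SE 0.29) and H2-Eb1 -0.21 (SE 0.37). Within Ch25h+/+, H2-Aa had one of -0.92 (95% interval -1.77 to -0.06), with an unadjusted p of 0.0362 and an edgeR adjusted p of 0.992. None of these 4 was called in any of the 6 contrasts and Ciita was not tested, beside 0.201% of genes in this one and 0.067% for loss of Ch25h in Tau+. The interval for Cd74 in macrophages lies below that in microglia, 3.14 to 7.87; the difference between classes was not tested.

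The macrophage class itself was uneven. The 278 nuclei with a UMI of Mrc1, F13a1 or Cd163, markers of border macrophages, had Cd74 at 1099 CPM, and the 64 without one had it at 4725 CPM and held 44.4% of the class's Cd74 UMIs. 18 of those 64 had a dendritic cell marker UMI and Cd74 at 5778 CPM, whereas all 89 macrophages with such a UMI had it at 1626 CPM. These are pooled counts with no replicate error. 189 of the 342 nuclei had no UMI of the chains or Cd74, and the 50 with most held 64.5% of the 1984 UMIs. At least 3 members were found together in 118 (34.5%), and 44 of the 46 nuclei with a Ciita UMI also had Cd74.

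Over all nuclei none of the 5 members was called in any contrast. Cd74 was at 10.8, 2.43, 3.45 and 10.3 CPM in Ch25h+/+ Tau+ and at 1.23, 0.863, 2.73 and 0.601 CPM in Ch25h+/+ Tau-. It was at 6.41, 2.83, 0.879 and 5.0 CPM with Tau+ under the Ch25h-/- label and at 2.50, 0.224, 0.958 and 3.87 CPM with Tau-. The tau groups overlapped under both genotypes. Over both genotypes its log2 fold change was 1.61 (SE 0.54, edgeR adjusted p = 0.112), beside 4.63% of 21392 genes called. Among nuclei of at least 1000 UMIs it was called (log2 fold change 2.0, edgeR adjusted p = 0.0334, beside 5.64%). H2-Ab1 (1.25, edgeR adjusted p = 0.246), H2-Aa (1.21, 0.305) and H2-Eb1 (0.79, 0.396) were not called. The background was 0.126% in Ch25h+/+, 0.762% in Ch25h-/-, 0.014% for loss of Ch25h in Tau+, 0.00467% for it in Tau- (0.00468% at 1000 UMIs per nucleus) and 0% for the interaction.

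In the same sums, 7 of 21 tested pathway genes were higher with tau over both genotypes and 0 lower, where 3.27% of all genes were called higher, with a median of 0.10 beside -0.00464 for all genes. The largest were H2-Ob (1.32, edgeR adjusted p = 0.0272), a chain of the H2-DM inhibitor H2-O, Ctss (1.17, 0.0114), Irf8 (1.16, 0.0122), Cd86, a T-cell co-stimulator (1.04, 0.00821), Spi1 (0.95, 0.00842) and H2-DMb1 (0.80, 0.0158). Of 7 tested interferon gamma genes 2 were higher, among them Ifngr1, a receptor subunit (0.30, edgeR adjusted p = 0.0403). Microglia numbered 1740 and 1727 in the 2 Tau+ groups against 1135 and 1188 in the Tau- groups, and their part in these values was not tested.

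Ciita over all nuclei ran from 5.63 to 8.35 CPM over the 16 libraries, and its log2 fold change with tau over both genotypes was 0.01 (SE 0.08, 95% interval -0.16 to 0.18). Most of these UMIs were in the same 4 neuronal classes, which also held most of all UMIs. Ciita was there at 6.77 to 9.40 CPM and Cd74 at 0.489 to 0.507 CPM. Cajal-Retzius neurons had Ciita at 3.04 CPM, from 3 UMIs. In oligodendrocytes Ciita was at 1.06 CPM and Cd74 at 2.40 CPM. Over 38 clusters of at least 100 nuclei outside the immune nuclei, Ciita (0.996 to 12.8 CPM) and Dexi (17.6 to 68.2 CPM) had a Pearson correlation of 0.789 and a Spearman correlation of 0.695, from clusters that share libraries and differ in depth. In macrophages Ciita was 143 CPM, and in sub-cluster 3 of Tau+ microglia 40.1 CPM, above all 38 clusters. How many neuronal Ciita reads come from Dexi was not tested.

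**Figure D5:**
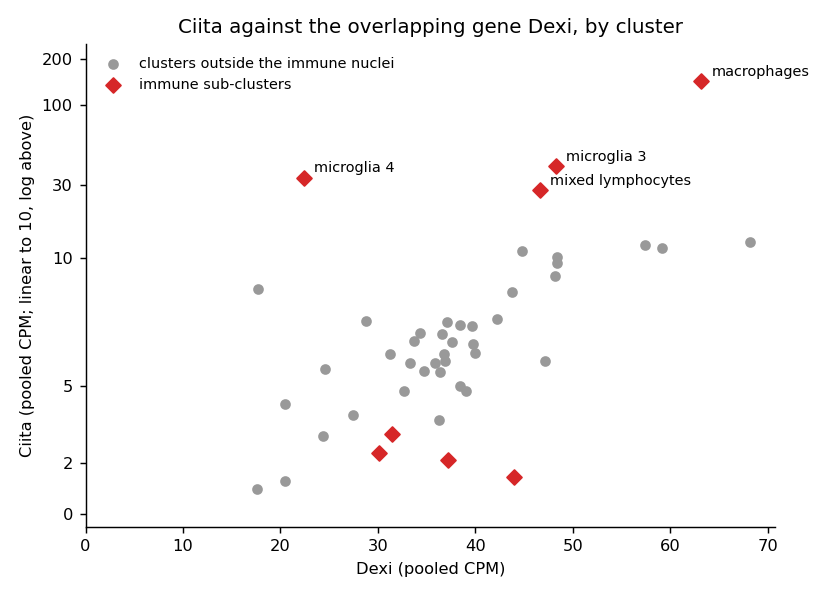
Ciita (vertical; CPM, linear to 10 and logarithmic above) against Dexi (horizontal, CPM), pooled over libraries, 1 point per cluster; grey points are 38 clusters outside the immune nuclei and red diamonds are immune sub-clusters. Macrophages, microglial sub-clusters 3 and 4 and the mixed lymphocytes lie above the grey points, which reach 12.8 CPM. Sub-cluster 4 had 3 Ciita UMIs in its Tau+ nuclei and the lymphocytes are 103 nuclei, so the positions of these points are uncertain.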

How the data were processed

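Nuclei of 16 mouse hippocampi were sequenced with the 10x Genomics 3' kit (version 3.1, per the labels' protocols). The deposited files hold raw UMI counts per gene and barcode, and, per the file headers, Cell Ranger 4 wrote them, whereas the submitters' processing notes name Cell Ranger 3.1.0 and mm10; whether intronic reads or strand were used in counting is not given in the sources used here. Samples were grouped by the labels' genotype field. The labels give no replicate numbers; those used here are accession order, name samples only and were not used to pair them. No 2 libraries of a group were copies: the chi-square per degree of freedom over their counts was 7.834 to 58.2 in 24 pairs.

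Barcodes with 500 or more UMIs, 300 or more genes and at most 5% mitochondrial UMIs were kept. Scrublet scored doublets, and the top 0.8% per 1000 nuclei were removed. Nuclei were clustered with scanpy 1.11.5 (3000 variable genes without the 5 members, 50 components, 20 neighbours, Leiden resolution 1, counts scaled to 10000 and log-transformed), giving 50 clusters, and the immune nuclei again (2000 genes, 30 components, 15 neighbours), giving 8. A cluster was named where 3 or more fixed markers were at least 2-fold above the rest. It stayed unnamed where its best class had only 3 and none of them was among the cluster's 10 leading genes. Clusters of over 50% doublets also stayed unnamed. The unnamed clusters held 26543 of the nuclei left after doublet removal. Promoter sequences are RefSeq's. Of 32285 identifiers, 32235 matched GENCODE M21.

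Counts were summed per library and class and tested with edgeR 4.0.16 (quasi-likelihood, TMM, filterByExpr, robust, R 4.3.3) over all 16 libraries, 1 mean per group. P-values were two-sided and Benjamini-Hochberg adjusted over all genes of a class and contrast, and genes under 0.05 are called. SE and 95% intervals come from the F statistic and the total degrees of freedom. The 6 contrasts share samples. The design asked for a macrophage fit only with 10 nuclei in every library. DESeq2 1.42.0 and the alternatives of the closing section were also run, and the procedure was tested on simulated data. The 5 members are named whatever they did, with called genes of 24 pathway and 8 interferon gamma genes (up to 6 per contrast by fold change) and the 5 genes most correlated with Cd74 and H2-Ab1. The members and lists were chosen with earlier results of these data known. Some single-gene results of these lists are not reported here.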

Additional observations from a re-analysis of the deposited data

Results flagged for a closer look

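Of 58 groups of 4 libraries examined for a library far from the rest of its group, 3 held one, and chance flags about 1 in 20. In microglia of Ch25h+/+ Tau- replicate 1, H2-Aa was at 2.27 CPM while the other 3 libraries were at 0. H2-Ab1 was at 2.41 CPM in replicate 4 labelled Ch25h-/- Tau- and at 0 in the rest of that group. Ciita was at 2.44 CPM in replicate 1 labelled Ch25h-/- Tau- and at 0 in the rest. Each of the 3 values comes from 1 UMI.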

How the results depend on the processing

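No paired analysis was possible because the replicate numbers are accession order. In microglia the number of members called with tau was 0 in each genotype and 2 over both by edgeR. By DESeq2 it was 2 in Ch25h+/+, 3 in Ch25h-/- and 4 over both, and without a count filter 1 in each genotype. Leaving out 1 library at a time gave 0 to 1 in each genotype and 1 to 3 over both. Over both genotypes it was 1 without nuclei that had markers of other immune cells, and 0 in replicates 1-2 alone (961 of 9766 genes called) or 3-4 alone (3 of 7562), a split with no label, where fewer samples were fitted. Over all nuclei, 1 member, Cd74, was called at 1000 UMIs per nucleus and 0 otherwise. RLE scaling in place of TMM changed no call of a member.

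The log2 differences that changed sign were uncalled under every setting listed. Ranges are the lowest and highest value on leaving out 1 library at a time. In microglia, loss of Ch25h in Tau+ gave H2-Aa -0.31 in replicates 3-4 alone. The ranges there were -0.73 to 0.56 for H2-Aa, -0.85 to 0.33 for H2-Eb1 and -0.999 to 0.066 for Cd74. In Tau- it gave, with doublets kept, H2-Ab1 0.31, H2-Aa 0.60 and Cd74 0.30. Cd74 was there at 1.67 without nuclei with other markers, 0.049 without sub-cluster 3 and 0.21 in replicates 1-2 alone, with a range of -1.37 to 0.19. The interaction with doublets kept was -0.94 for H2-Ab1, -0.53 for H2-Aa and -0.73 for Cd74. H2-Ab1 was at -0.32 at 1000 UMIs and -0.46 in replicates 3-4 alone, and H2-Aa at -0.31 there. The Cd74 interaction was -2.05 without nuclei with other markers, -0.28 without sub-cluster 3 and -0.47 in replicates 1-2 alone, with a range of -0.63 to 0.93.

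Over all nuclei, the tau effect in Ch25h+/+ gave Ciita 0.044 in replicates 3-4 alone (range -0.090 to 0.040). In Ch25h-/- it gave H2-Ab1 -0.24 and H2-Eb1 -0.50 in replicates 3-4 alone, with ranges of -0.014 to 0.80 for H2-Eb1 and -0.040 to 0.089 for Ciita. For loss of Ch25h in Tau+, Ciita was -0.0098 without a filter, -0.020 with doublets kept and -0.00345 in replicates 3-4 alone (range -0.070 to 0.060), and H2-Aa ranged from -0.81 to 0.010. For its loss in Tau-, H2-Ab1 was -0.15 in replicates 1-2 alone. The ranges were -0.13 to 0.79 for H2-Ab1, -0.52 to 0.97 for H2-Aa, -0.027 to 0.98 for H2-Eb1, -0.13 to 1.05 for Cd74 and -0.14 to 0.0095 for Ciita. The interaction ranged from -1.37 to 0.13 for H2-Aa and from -0.019 to 0.15 for Ciita. Over both genotypes Ciita was -0.038 in replicates 1-2 alone (range -0.031 to 0.049). The cause of these changes was not tested. Counts of 0 to 7 UMIs per Tau- group limit every microglial value there.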
